A study of Rattus norvegicus with 4 samples.

Results

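The inflammatory chemokines described here are 10 genes of the rat pancreas, Ccl2, Ccl7, Ccl3, Ccl4, Ccl5, Ccl11, Cxcl1, Cxcl2, Cxcl12 and Cx3cl1. They were chosen by name, through the symbol of each array probe, and make up 10 of the 26541 genes or unnamed transcripts on the array. These genes are read by 11 of the 30367 gene probes, 1 probe for each of 9 genes and 2 probes for Cxcl12. The study asked how dietary iron alters mRNA levels in the pancreas of the rat.

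Male weanling Sprague-Dawley rats ate 1 of 3 diets for 3 weeks. Per the labels, the deficient diet (FeD) held 5 ppm iron, the adequate diet (FeA) 35 ppm and the overload diet (FeO) 20275 ppm. RNA from the pancreases of 6 rats was combined into 1 pool per diet. Arrays 1 and 2 carried FeD with FeA, and arrays 3 and 4 carried FeO with the same FeA pool, with the dyes exchanged between the arrays of a pair. The arrays are therefore technical repeats of 1 pool per diet, the spread among rats cannot be seen, and no test of the diets was possible. Both comparisons share the FeA pool, so that any peculiarity of this pool enters both. All 4 arrays came from 1 slide and 1 scan.

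Chemokines are small secreted proteins that guide leukocytes along a concentration gradient by binding G protein-coupled receptors. Inflammatory members are made on demand by macrophages, endothelium, stromal and epithelial cells, often downstream of NF-kB, whereas Cxcl12 is made constantly by stromal cells and also holds progenitor cells in place. In the pancreas, Ccl2 and Cxcl1 are known as chemokines that injured acinar cells and islets release.

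The median spot signal per array and dye ranged from 115 to 222.5 intensity units over local backgrounds of 50 to 87. Between 61.9% and 71.5% of gene probe spots were well above background, the scanner software's mark for a spot clearly brighter than its surroundings. The small number of arrays limits the precision of every value. A log2 ratio is given as the diet over FeA on each array, and across all genes measured the arrays of a pair differed by a median of 0.23 on the log2 scale in each comparison. Signals are channel values after normalization, in intensity units that include an added offset of 50, so ratios of dim probes are drawn toward 0. A gene counted as measured when its probe was well above background on both arrays in at least 1 pool, and as higher or lower when the mean log2 ratio reached 1 in size with the same sign on both arrays.

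The pancreas label was checked first. Acinar digestive enzymes were bright in all 3 pools, with Ctrb1, the precursor of chymotrypsin, at signals of 299143 to 627125 on the 4 arrays. Ins1, an insulin gene of beta cells, lay between 55040 and 116971. Of the 12 acinar genes, 12 were measured in FeD and 9 in FeO, where 3 had no value on array 4 once outlier spots were left out, and all 7 islet genes were measured in both comparisons.

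No inflammatory chemokine reached the 2-fold criterion in either diet, but in the FeO pool Ccl2 (0.90) and Ccl11 (0.64) stood above FeA in mean log2 ratio, on both arrays each. Ccl7 in FeO was at least 1.69-fold an FeA level that was not well above background. Cxcl12 depended on the probe, at 0.84 in FeO and 0.65 in FeD with the brighter and at -0.21 and -0.01 with the other. In the FeD pool Ccl2 stood at 0.56. Ccl5 stood at -0.49 in FeO and near 0 in FeD. Ccl4 and Cxcl2 were not well above background in any pool on any array.

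Of the 10 chemokines, 6 were measured in the FeD comparison, each well above background in both pools, and 8 in the FeO comparison. At a log2 ratio of 1, 0 of the 6 were higher in FeD, where 0.127% of the 15726 genes measured were, and 0 were lower, against 0.242% of all genes. In FeO, 0 of the 8 were higher, against 0.669% of the 16437 genes measured, and 0 were lower, against 0.481%. No chemokine, 0 of 6 and 0 of 8, reached a log2 ratio of 2, the size used in the methods of the study, a size that 0.0191% (higher) and 0.0827% (lower) of genes reached in FeD and 0.0608% and 0.128% in FeO.

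At the smaller size of 0.58, a 1.5-fold difference, Cxcl12 was higher in FeD, 1 of 6 against 1.20% of all genes. In FeO this size was passed by Ccl2, Ccl7, Cxcl12 and Ccl11, 4 of 8 against 2.55%. With the mean of both probes Cxcl12, at 0.32 in FeD and 0.31 in FeO, missed this size in each diet, and without background subtraction Ccl11, at 0.56, missed it in FeO. Lower by this size were 0 of 6 in FeD, against 0.731% of all genes, and 0 of 8 in FeO, against 1.44%. Ccl7 and Cxcl1 entered the FeO count through the FeO pool alone, where they were brighter, and this route favoured that direction. Ccl3 entered the FeO count through the FeA pool. Over the 5 chemokines well above background in both pools, 3 were higher in FeO by 0.58. The share of all genes under that stricter filter was not computed, so this count has no background beside it.

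The offset and the choice of signals bear on these counts. By construction an offset shrinks the ratios of dim probes most, while processed signals also differ in background and dye correction. With an offset of 0, Ccl2 (1.36) and Ccl7 (1.97) passed a log2 ratio of 1 in FeO, and with the scanner software's processed signals Ccl2 (1.60), Ccl7 (2.62) and Ccl11 (1.04) did, together with Ccl2 (1.09) in FeD. More of all genes passed in these settings too, 1.17% higher in FeO with an offset of 0, and 2.07% in FeO and 0.878% in FeD with processed signals. These Ccl7 values are ratios to FeA signals that were not well above background. With processed signals Cxcl1 went from 0.18 to 0.99 in FeO, and Ccl7 from 0.32 to 1.69 in FeD, where it was not measured. Cxcl2, never well above background, went from -0.04 to 0.97 in FeD and from -0.02 to 0.70 in FeO. Values below 0 also moved away from it, Ccl3 from -0.08 to -0.54, Ccl4 from -0.03 to -0.39 and Ccl5 from -0.49 to -0.68 in FeO, and Ccl11 from -0.20 to -0.44 in FeD.

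By direction alone, Ccl2, Ccl3, Cx3cl1 and Cxcl12 were above 0 on both FeD arrays, 4 of 6 against 25.0% of all genes, and Ccl11 was below 0 on both, against 21.3%. In FeO, 6 of 8 were above 0 on both arrays, against 27.7% of all genes. So were 4 of the 5 well above background in both pools, for which no share of all genes was computed. Only Ccl5 was below 0 on both FeO arrays, against 24.3%. The median log2 ratio of the measured chemokines was 0.15 in FeD and 0.45 in FeO, beside a median of 0.01 over all genes measured in each comparison. Over the 5 well above background in both pools the FeO median was 0.64, with no median of all genes computed under that filter. In bulk RNA of a whole organ, more cells that make a chemokine and more of its RNA per cell cannot be told apart.

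**Figure D1:**
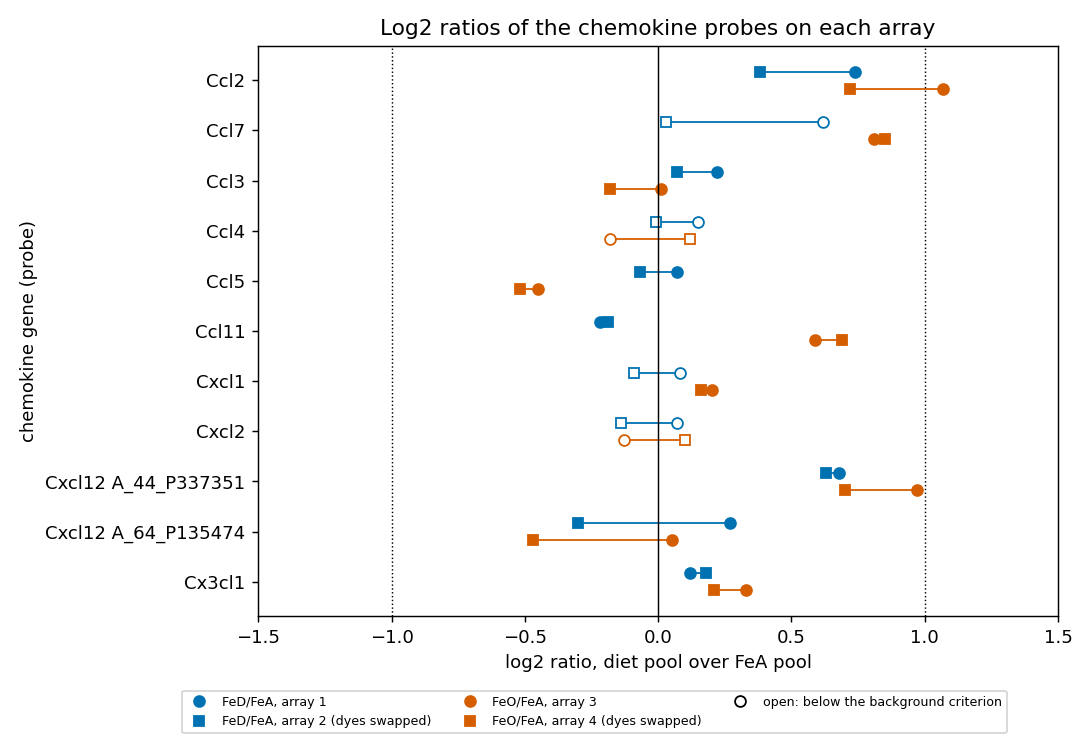
Log2 ratio of the diet pool over the FeA pool (horizontal axis) for the 11 probes of the 10 chemokines, 1 point per array and a line joining the arrays of a comparison, with open points for probes below the background criterion. Ccl2, Ccl7, Ccl11 and the Cxcl12 probe A_44_P337351 lie at 0.59 or higher on both FeO arrays, and the only point past 1 belongs to Ccl2 on array 3.

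Ccl2 and Ccl7 are monocyte attractants that signal through Ccr2. Ccl2 signals in the FeA pool were nearly level over the arrays, at 116, 121, 119 and 121 on arrays 1 to 4. The FeD pool gave 194 on array 1 and 158 on array 2, and the FeO pool 249 on array 3 and 200 on array 4. All 4 diet signals therefore lay above all 4 FeA signals, which are repeat readings of 1 pool. How many of all genes separate in such a way was not counted, here or for the chemokines below. The log2 ratios were 0.74 and 0.38 in FeD (mean 0.56, 1.48-fold) and 1.07 and 0.72 in FeO (mean 0.90, 1.86-fold). Array 3 taken alone would pass the 2-fold criterion and array 4 would not. Among all genes measured, 212 had a higher mean ratio in FeD (1.35%) and 143 in FeO (0.870%).

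The probe of Ccl2 is printed 10 times on each array, which shows the spread within an array. On array 1 the 9 spots kept had a mean of 0.74 (SD 0.15) and on array 2 the 9 spots kept a mean of 0.38 (SD 0.11). On array 3 the 10 spots averaged 1.07 (SD 0.14), from 0.79 to 1.33, and on array 4 they averaged 0.72 (SD 0.17), from 0.34 to 0.89. Each of these spots lay above 0. The arrays of a pair, with their dyes exchanged, thus differed by more than the SD among spots of either array, and the mean ratio of each diet exceeded that difference.

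The Ccl7 probe was dim. Its FeA signals were 71.7, 82.4, 78.8 and 65.8 on arrays 1 to 4, and the probe was not well above background in this pool on any of them. In the FeO pool it was well above background on both arrays, at 139 and 119, and the FeO level was at least 1.69-fold that of FeA. This bound takes the lowest signal well above background on each array in place of a dimmer one. FeD signals were 110 on array 1, where the probe was well above background, and 84.1 on array 2, where it was not. The measured log2 ratios were 0.62 and 0.03 in FeD, which was not counted, and 0.81 and 0.85 in FeO.

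Ccl2, Ccl7 and Ccl11 follow one another on chromosome 10 in the RefSeq order of protein-coding genes of the rat. These are 3 of the 4 chemokines that stood 0.58 or more above FeA in the FeO pool. Ccl7 was measured there through the FeO pool alone, which favoured that direction. In FeD Ccl2 (0.56) and Ccl11 (-0.20) had opposite signs, and Ccl7 was not measured. Whether gene order bears on any ratio was not tested. RefSeq promoter sequences, 250 bases before to 50 bases after the start, matched 5 of the 10 chemokines: Ccl7, Cxcl1, Cxcl2, Cxcl12 and Cx3cl1. Promoters of Ccl2, Ccl3, Ccl4, Ccl5 and Ccl11 were not used here. The motifs searched on both strands were the NF-kB consensus of 10 letters, present in 7.51% of all 33469 promoters, TGANTCA of AP-1 sites (7.33%) and the TATA box TATAAA (14.2%). This choice of motifs was made after the sequences had been seen. The promoter of Ccl7 lies at chr10:67513845-67514144 on the plus strand of GRCr8 and is shown as the only window among the 3 printed that holds all the motifs. Capitals mark, from left to right, TGANTCA 73 bases before the start, the NF-kB consensus 59 bases before it on the other strand, and TATAAA 34 bases before it, with no overlap between motifs.
Ccl7: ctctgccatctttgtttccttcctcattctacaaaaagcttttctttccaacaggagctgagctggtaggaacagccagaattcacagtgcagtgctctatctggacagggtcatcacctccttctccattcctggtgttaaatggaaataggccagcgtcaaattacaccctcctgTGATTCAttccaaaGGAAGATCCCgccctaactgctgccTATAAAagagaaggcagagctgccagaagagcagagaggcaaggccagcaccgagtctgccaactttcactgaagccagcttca
A match describes the letters of the sequence only, and whether a factor bound there was not tested.

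**Figure D2:**
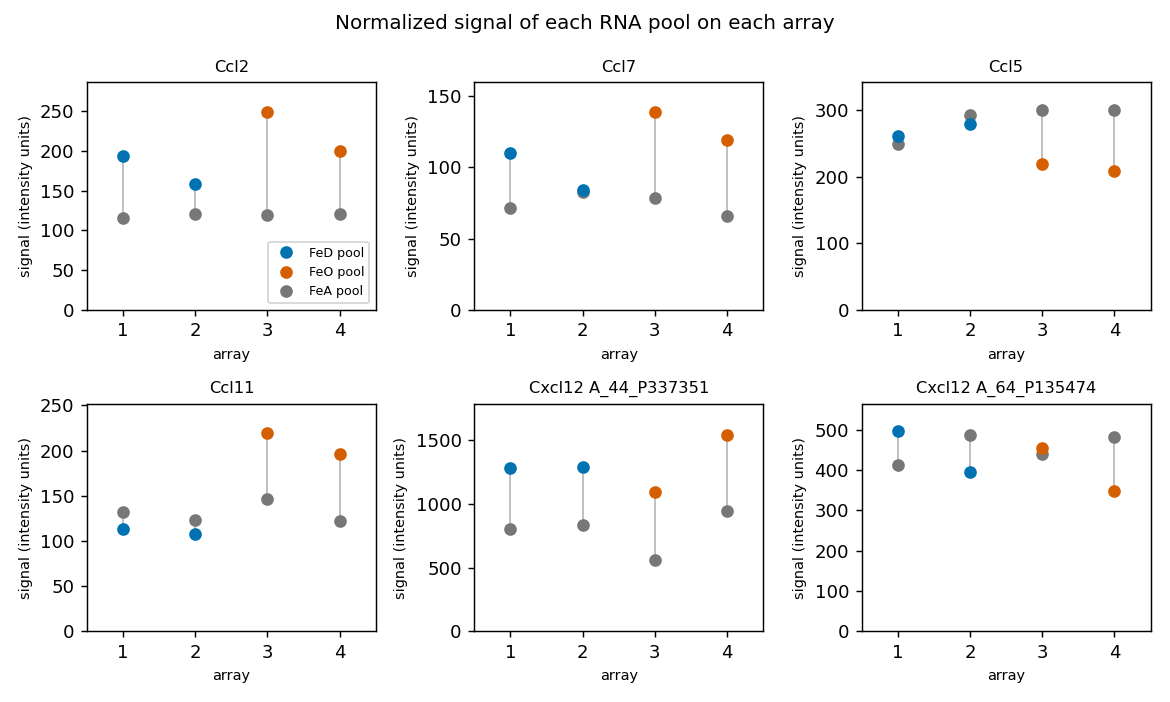
Normalized signal in intensity units (vertical axis, from 0) of 6 chemokine probes on arrays 1 to 4, with 1 point per RNA pool and a line joining the pools of an array. FeO signals of Ccl2 (249 and 200) stand above FeA signals of 119 and 121, whereas FeO signals of Ccl5 (220 and 209) stand below FeA signals of 301 and 300.

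Ccl11, or eotaxin, attracts eosinophils through Ccr3. Its FeA signals were 132, 123, 146 and 122 on arrays 1 to 4. FeD signals were 113 and 108 and FeO signals 219 and 196. Every FeD signal was thus below, and every FeO signal above, all FeA signals, which again repeat 1 pool. The share of all genes with such a separation was not counted. The log2 ratios were -0.22 and -0.19 in FeD (mean -0.20) and 0.59 and 0.69 in FeO (mean 0.64, 1.55-fold), so the arrays of each pair lay closer together than the median of 0.23. A higher mean ratio was found for 333 genes in FeO (2.03%), and for 92.8% of genes in FeD. The difference between the diets was not tested.

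Ccl3, Ccl4 and Ccl5 attract T cells, monocytes and natural killer cells. Ccl5 was well above background in every pool. Its FeA signals were 249, 293, 301 and 300 on arrays 1 to 4, beside 261 and 279 in FeD and 220 and 209 in FeO. FeD signals therefore fell within the FeA range and FeO signals below it, with no share of all genes counted for this. The log2 ratios were 0.07 and -0.07 in FeD, and -0.45 and -0.52 in FeO (mean -0.49, 1.40-fold below FeA), where 97.8% of the genes measured had a higher ratio.

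Ccl3 and Ccl4 are neighbours on chromosome 10 and were both dim. The probe of Ccl3 gave FeA signals of 103, 98.6, 96.2 and 94.3, FeD signals of 120 and 104, and FeO signals of 97.1 and 83.3, well above background in FeO on 1 of 2 arrays. Mean log2 ratios of Ccl3 were 0.15 in FeD and -0.08 in FeO, and on each of arrays 1 to 4 its spots lay on both sides of 0, with an SD of 0.14 to 0.17. Spots above 0 numbered 9 of 10 and 6 of 8 on arrays 1 and 2, and 4 of 8 and 2 of 10 on arrays 3 and 4. Ccl4 had log2 ratios of 0.15 and -0.01 in FeD and -0.18 and 0.12 in FeO, with no level well above background.

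Cxcl1 and Cxcl2 attract neutrophils through Cxcr2 and are next to each other on chromosome 14. Cxcl1 was well above background in the FeO pool on both arrays, at 98.5 and 90.0, and in the FeA pool on neither of these, at 85.7 and 80.6. The FeO level was at least 1.13-fold that of FeA, with log2 ratios of 0.20 and 0.16. On the FeD arrays the log2 ratios were 0.08 and -0.09, and the FeD pool was well above background on 1 array only. Spots of Cxcl1 above 0 numbered 7 of 10 and 2 of 10 on arrays 1 and 2, and 8 of 9 and 9 of 10 on arrays 3 and 4. Cxcl2 stayed below the background criterion throughout, with log2 ratios between -0.14 and 0.10.

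The promoter of Cxcl1, at chr14:17479272-17479571 on the minus strand of GRCr8 in RefSeq, is shown as another window that holds the NF-kB consensus. Capitals mark a pair of overlapping matches to it, 84 and 83 bases before the start and on opposite strands. Neither TGANTCA nor TATAAA occurs in this window. The Cxcl2 promoter also held a pair of overlapping NF-kB matches, 74 and 73 bases before the start, and neither of the other motifs, in a gene never well above background here.
Cxcl1: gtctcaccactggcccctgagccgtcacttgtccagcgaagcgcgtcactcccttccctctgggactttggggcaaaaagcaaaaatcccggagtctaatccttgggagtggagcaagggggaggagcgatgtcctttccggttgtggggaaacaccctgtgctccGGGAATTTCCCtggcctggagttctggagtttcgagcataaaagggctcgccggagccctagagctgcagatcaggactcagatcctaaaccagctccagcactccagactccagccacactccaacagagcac

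**Figure D3:**
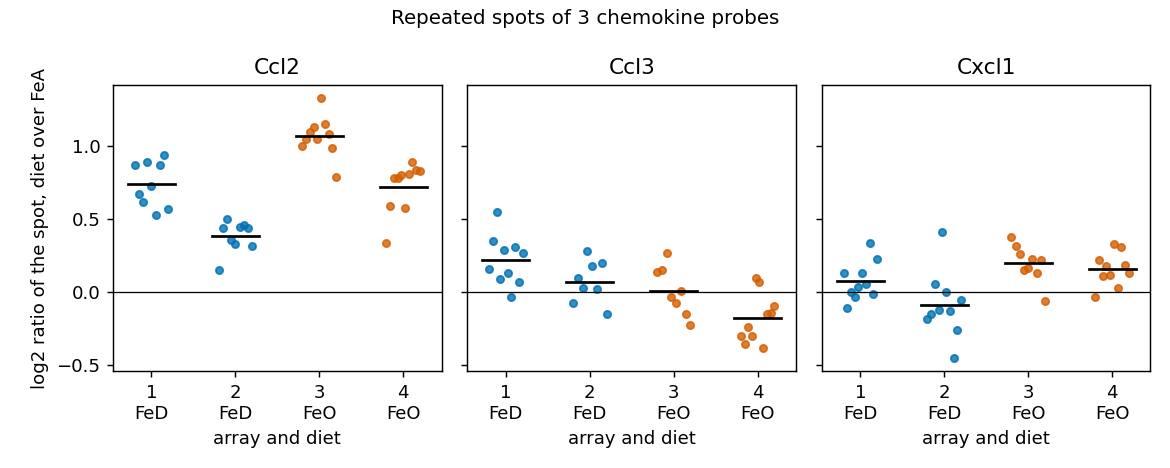
Log2 ratio of each repeated spot (vertical axis) of the Ccl2, Ccl3 and Cxcl1 probes on arrays 1 and 2 (FeD over FeA) and 3 and 4 (FeO over FeA), with 1 point per spot and a bar at the mean of the array. Spots of Ccl2 lie above 0 on every array, while those of Ccl3 and Cxcl1 lie on both sides of 0.

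Cxcl12 retains and attracts lymphocytes and progenitor cells through Cxcr4 and is taken up by Ackr3. Its brighter probe, A_44_P337351, gave FeA signals of 800, 831, 557 and 944 on arrays 1 to 4. FeD signals were 1280 and 1286, and FeO signals 1088 and 1539. All diet signals were above all FeA signals, although the FeA signal itself varied between arrays 3 and 4. The share of all genes separating so was not counted. The log2 ratios were 0.68 and 0.63 in FeD (mean 0.65, 1.57-fold) and 0.97 and 0.70 in FeO (mean 0.84, 1.78-fold), with higher ratios for 123 genes in FeD (0.782%) and 162 in FeO (0.986%).

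The other Cxcl12 probe, A_64_P135474, did not show this difference. Its signals were 496 and 396 in FeD, 454 and 348 in FeO, and 412, 486, 439 and 482 in FeA. Log2 ratios of this probe were 0.27 and -0.30 in FeD (mean -0.01) and 0.05 and -0.47 in FeO (mean -0.21), with opposite signs on the exchanged dyes. The probes carry different RefSeq transcript accessions of the gene, and the value given for Cxcl12 depends on which is read.

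The promoter of Cxcl12, at chr4:152060531-152060830 on the plus strand of GRCr8 in RefSeq, held none of the 3 motifs and is shown for contrast with those of Ccl7 and Cxcl1. No letters are therefore in capitals, which says only that these motifs are not in this window.
Cxcl12: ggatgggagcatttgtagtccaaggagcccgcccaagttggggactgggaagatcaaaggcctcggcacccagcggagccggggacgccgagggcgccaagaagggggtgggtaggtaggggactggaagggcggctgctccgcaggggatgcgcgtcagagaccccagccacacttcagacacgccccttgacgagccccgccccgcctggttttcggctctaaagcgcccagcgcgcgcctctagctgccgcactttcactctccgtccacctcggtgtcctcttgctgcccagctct

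Cx3cl1, or fractalkine, is a membrane-bound chemokine of endothelial, neuronal and epithelial cells that holds monocytes bearing Cx3cr1. Its FeA signals were 481, 407, 444 and 421, beside 523 and 461 in FeD and 558 and 485 in FeO. Within each array the diet signal was the higher one, but FeD and FeA signals overlapped across arrays. Log2 ratios were 0.12 and 0.18 in FeD (mean 0.15) and 0.33 and 0.21 in FeO (mean 0.27, 1.20-fold). The gene lies between Ccl17 and Ccl22 on chromosome 19, and its promoter held TATAAA 78 bases before the start and neither of the other motifs.

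**Figure D4:**
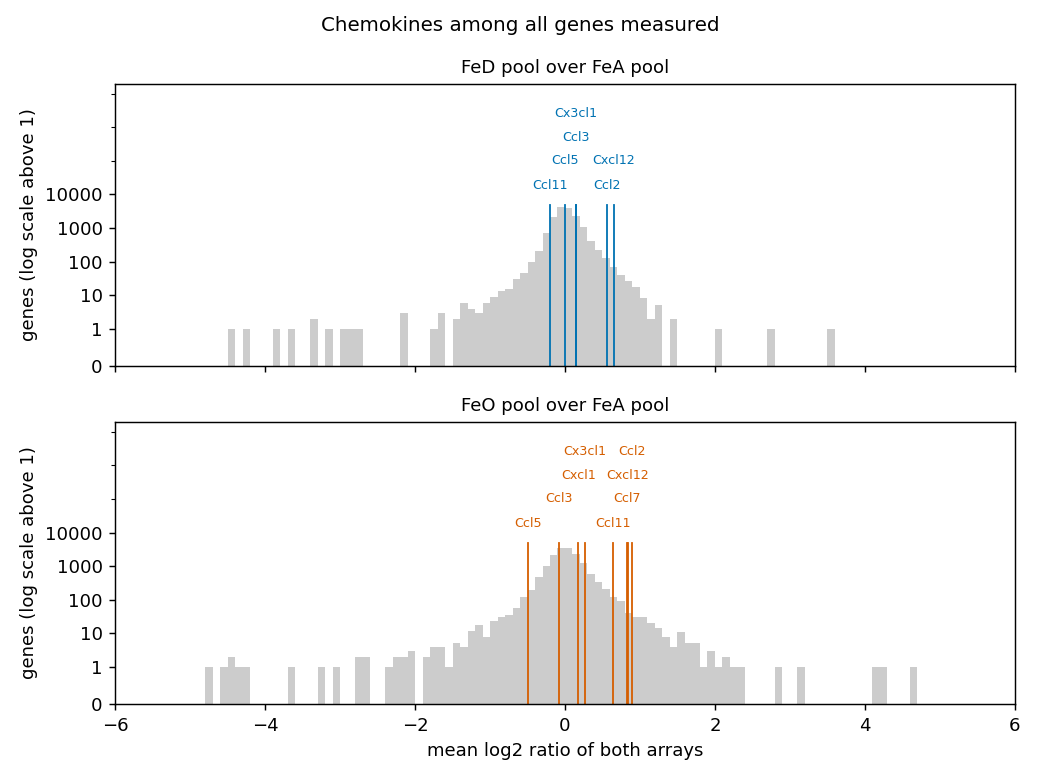
Number of genes (vertical axis, log scale above 1) by mean log2 ratio of the diet over FeA (horizontal axis), for FeD above and FeO below, with a line at each measured chemokine. Ccl2, Ccl7 and Cxcl12 lie from 0.83 to 0.90 in FeO, where the middle of the distribution, from lower to upper quartile, spans -0.10 to 0.14, with Ccl7 read against an FeA signal not well above background.

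No measured receptor of the 10 ligands reached the 2-fold criterion. Of 21 chemokine receptor genes on the array, 9 were measured in FeD, with 0 higher, 0 lower and a median log2 ratio of 0.24, and 10 in FeO, with 0 higher, 1 lower and a median of -0.02. The lower gene was Ccr6, the receptor for Ccl20 on B cells and T cells, at -1.15 in FeO and 0.61 in FeD. Cxcr4, the signalling receptor for Cxcl12, gave log2 ratios of 0.52 and 1.08 in FeD and -0.58 and -0.04 in FeO. Ackr3, which binds and removes Cxcl12, gave 0.19 and 0.00 in FeD and 0.72 and 0.74 in FeO. The 2 Cxcl12 receptors thus stood apart from FeA in different diets, Cxcr4 mainly in FeD and Ackr3 in FeO, a difference that was not tested.

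Ccr2, the receptor for Ccl2 and Ccl7, was well above background in the FeO pool on both arrays but not in FeA, at a level at least 1.09-fold that of FeA, and was not measured in FeD. Cx3cr1 had mean log2 ratios of 0.32 in FeD and 0.18 in FeO. Ackr2, a scavenger of inflammatory chemokines, had -0.04 and -0.17. Ccr1, Ccr3 and Cxcr2 did not pass the background filter in either comparison. Ackr1 was not matched to a probe.

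Among 26 other chemokines, 16 were measured in each comparison. In FeD 1 was higher and 0 lower, with a median of 0.17, and in FeO 1 was higher and 0 lower, with a median of 0.04. The FeD gene was Pf4, the platelet and megakaryocyte chemokine Cxcl4, with signals of 571 and 609 in FeD against 278 and 297 in FeA and a log2 ratio of 1.04 on each array. Pf4 stood at 0.88 in FeO. Cxcl14, a chemokine of epithelium and fat, was higher in FeO, at 1.60 and 0.75, and its FeD ratios of 0.79 and -0.13 differed in sign.

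Cytokines that induce chemokines were mostly dim. Of 15, 7 were measured in each comparison and 5 (Il1a, Il6, Ifng, Il4 and Csf2) were not well above background anywhere. The median was 0.17 in FeD and 0.03 in FeO, with 0 genes higher or lower in either. The list of NF-kB components and early targets had 13 of 17 genes measured, with medians of 0.19 in FeD and 0.13 in FeO and 0 higher or lower. In FeD 10 of these 13 were above 0 on both arrays, against 25.0% of all genes, and in FeO 5, against 27.7%. In FeD 1 of the 13 was measured through the FeD pool alone, which favoured that direction. Ptgs2 was below the background criterion on every array.

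Markers of the cells that make or follow chemokines also differed between pools, and their part in the chemokine ratios was not tested. Summed signals below add the probes of a list, with the pools of each array side by side, and the brightest gene of a list is the one with the highest mean log2 signal over all arrays and pools before the arrays were scaled to each other. Signals of different probes give no order of mRNA levels. A list gene that was measured through 1 pool alone was favoured to be brighter there, as for the chemokines. For 12 monocyte and macrophage genes the sums were 23900 (FeD) and 15297 (FeA) on array 1, 20994 and 15934 on array 2, 11297 (FeO) and 9205 (FeA) on array 3, and 16241 and 16421 on array 4. Lyz2, the lysozyme of myeloid cells, was the brightest, and its FeA signal alone varied from 2340 to 9466 between arrays. Of the 11 genes measured, 0 passed 2-fold in either diet, 8 were above 0 on both arrays in FeD and 7 in FeO, with medians of 0.29 and 0.34. Of all genes measured, 25.0% were above 0 on both FeD arrays and 27.7% on both FeO arrays. Mrc1 was not well above background.

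Neutrophil markers, 10 genes, summed to 1505 (FeD) and 1254 (FeA) on array 1, 1430 and 1203 on array 2, 1828 (FeO) and 1465 (FeA) on array 3, and 2023 and 1475 on array 4. Their brightest gene was Lcn2, an iron-siderophore binding protein of neutrophils and of stressed epithelium, which was higher in FeO at 0.78 and 1.51 and stood at 0.66 in FeD. The medians were 0.14 over 5 genes measured in FeD and 0.07 over 7 in FeO, and no gene was lower. On both arrays 3 of the 5 were above 0 in FeD and 1 below it, and in FeO 4 of the 7 were above and 2 below. The shares of all genes above and below were 25.0% and 21.3% in FeD, and 27.7% and 24.3% in FeO. S100a8 and Elane were not well above background. A further 3 are named after their values were seen. S100a9 was well above background in the FeO pool and not in FeA, at a level at least 1.32-fold that of FeA. Ctsg had 0.66 and 0.51 in FeO and Ngp -0.40 and -0.70. In FeD Ctsg had 0.37 and 0.03 and Ngp -0.36 and -0.44, so Ngp was below FeA in both diets. S100a9, at 0.73 and 0.20 in FeD, did not pass the background filter there.

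Of 5 eosinophil genes on the array, Prg2 was the brightest and the only 1 measured, at 0.24 in FeD and -0.20 in FeO, while Epx, Prg3 and Il5ra were not well above background. The eosinophil sums were 587 (FeD) and 537 (FeA) on array 1, 594 and 556 on array 2, 477 (FeO) and 484 (FeA) on array 3, and 438 and 477 on array 4. Ccl11 thus stood above FeA in the FeO pool, while Prg2 did not. The other probes of the eosinophil sum were not measured and lay near background, so the sum could move little through them.

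Mast cell proteases were among the genes higher in FeO. The 8 mast cell probes summed to 1853 (FeO) against 984 (FeA) on array 3 and 1911 against 1013 on array 4, and to 1042 (FeD) against 924 and 896 against 823 on arrays 1 and 2. Of 6 genes measured in FeO, 3 were higher: the proteases Cma1 (1.69), Tpsb2 (1.08) and Tpsab1 (0.89 and 1.32 on arrays 3 and 4). All 6 were above 0 on both arrays, against 27.7% of all genes, and 1 of them was measured through the FeO pool alone. Their median was 1.00, whereas the 5 measured in FeD had a median of 0.09. Kit was the brightest, at 0.52 in FeO and 0.41 in FeD, and Ms4a2 was not well above background.

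Of the T cell genes measured, 8 of 9 were above 0 on both FeD arrays, while 6 of 8 were below 0 on both FeO arrays and 0 above. For B cell genes these were 5 of 5 above in FeD and 3 of 3 below in FeO. Of all genes measured, 25.0% were above 0 on both FeD arrays and 24.3% below 0 on both FeO arrays. Measured through the FeD pool alone were 2 of these 5 B cell genes and 1 of the 9 T cell genes. Through the FeA pool alone were 2 of the 8 T cell genes in FeO. The filter favoured the counted direction for these genes, while 0 of the 3 B cell genes in FeO were measured through 1 pool alone. No direction of the T and B cell genes was tested. Their part in any chemokine ratio was not tested. The 10 T cell genes summed to 3937 (FeD) against 2485 (FeA) and 3589 against 2456 on arrays 1 and 2, and to 1779 (FeO) against 2514 and 1913 against 2701 on arrays 3 and 4. In FeD 1 of 9 was higher (Cd247, at 1.00), with a median of 0.44, and in FeO 1 of 8 was lower (Cd3g, at -1.18), with a median of -0.35. Cd3d was the brightest, at 0.53 and -0.43, and Trat1 was not well above background. For 5 B cell genes the sums were 1813 (FeD) against 1250 and 1903 against 1082, and 638 (FeO) against 1159 and 724 against 1035. Medians of the B cell list were 0.39 over 5 genes in FeD and -0.91 over 3 in FeO, with 0 past 2-fold. Ccl5, itself made by T cells, stood at -0.49 in the same FeO pool and near 0 in FeD.

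Lymph node stroma surrounds lymphocytes in nodes next to the pancreas. Its genes were above 0 on both FeD arrays in 6 of 6, against 25.0% of all genes, 1 of them measured through the FeD pool alone. In FeO 3 of 6 were below 0 on both arrays, against 24.3%, and 2 above it, against 27.7%. Sums of its 6 genes were 9705 (FeD) against 5300 and 9505 against 5189 on arrays 1 and 2, and 2778 (FeO) against 5267 and 2933 against 5299 on arrays 3 and 4. Glycam1, a ligand for lymphocyte homing, was higher in FeD (1.15) and lower in FeO (-2.75). The medians were 0.68 and -0.55 over all 6 genes. Ccl21, the brightest gene of this list, is a chemokine that directs cells into nodes, and stood at 0.73 in FeD and -0.99 in FeO.

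Of the adipocyte genes, 4 of 7 were higher in FeO, and the other 3 did not reach 2-fold. Sums of 7 adipocyte genes were 36566 (FeO) against 11115 (FeA) and 35774 against 10070, and 9069 (FeD) against 10848 and 7908 against 8564. The higher genes were Cfd (2.31), Adipoq (2.07), Cidec (1.92) and Fabp4 (1.47), and the FeO median was 1.47, beside 0.03 over 6 genes in FeD with none past 2-fold. Cfd was the brightest. No adipocyte gene was below background in every pool.

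The 8 fibroblast and stellate cell genes, from cells that make Cxcl12 and Ccl11, summed to 20016 (FeO) against 15335 and 20711 against 13234, and to 12653 (FeD) against 14320 and 13488 against 13499. Of 7 measured, 0 passed 2-fold, and the medians were -0.01 in FeD and 0.34 in FeO. Col3a1 was the brightest, at 0.02 and 0.69, and Thy1 was not well above background. The 8 endothelial genes summed to 3888 (FeD) against 3119 and 3535 against 3079, and to 3437 (FeO) against 2540 and 3439 against 2554. Endothelial medians were 0.23 and 0.37 over 7 genes, with 0 past 2-fold, Kdr the brightest at 0.40 and 0.70, and Tek not well above background.

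Mesothelium, which covers the organ, had 4 genes with sums of 3029 (FeO) against 1765 and 2607 against 1427, and 1653 (FeD) against 1612 and 2003 against 1497. The transcription factor Wt1 was higher in FeO (1.11), where the median was 0.82 over 4 genes, 3 of them measured through the FeO pool alone. In FeD the median was 0.20 over 3 genes, with 0 past 2-fold. Msln, the brightest, stood at 0.25 in FeD and 0.83 in FeO.

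Intestinal epithelium served as a check on neighbouring tissue in the pools. Its 6 genes summed to 1754 (FeD) against 4644 and 1763 against 4172, and to 1259 (FeO) against 4450 and 1405 against 4335, so the FeA pool held most of this signal. Lower in both diets were 4 of 6, with medians of -1.39 in FeD and -1.78 in FeO: Lgals4 (-2.11 and -3.60), Krt20 (-1.16 and -1.74, the brightest), Cdh17 (-1.61 in FeD, and at least 3.54-fold higher in FeA than FeO) and Fabp2 (at least 6.77-fold higher in FeA than FeD and at least 6.32-fold higher than FeO). Both comparisons use this FeA pool, and what its makeup adds to any chemokine ratio was not tested.

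Markers of the pancreatic cells themselves were read in the same way. Sums of 9 acinar genes with a value on every array were 2946225 (FeD) against 2421999 and 2762687 against 2754957, and 2457061 (FeO) against 2767922 and 2388742 against 3151031. Acinar medians were 0.05 over 12 genes in FeD and -0.29 over 9 in FeO, the latter 0.09 with median centring of the arrays, and 0 passed 2-fold. Ctrb1, the brightest before that scaling though not after it, stood at 0.60 and 0.19. Saturated spots, at the scanner's upper limit, numbered 14 to 20 per array in the Cy5 dye and 0 in the Cy3 dye. Which genes they belong to is not given here, so ratios and sums of the brightest acinar probes may be affected.

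The 7 islet genes summed to 156201 (FeD) against 229875 and 163171 against 189226, and to 126886 (FeO) against 252719 and 143250 against 217879. Islet medians were -0.22 and -0.77. In FeO the hormone genes Ppy (-1.19) and Iapp (-1.02) were lower and Gcg (1.14) was higher, and in FeD 0 of 7 passed 2-fold, with Ins1, the brightest, at -0.44 and -0.81. The 6 duct genes summed to 1538 (FeD) against 1649 and 1698 against 1605, and to 1494 (FeO) against 1727 and 1568 against 1668. Duct medians were 0.11 and 0.05 over 5 genes, with 0 past 2-fold and Krt19, the brightest, at -0.33 and -0.98.

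**Figure D5:**
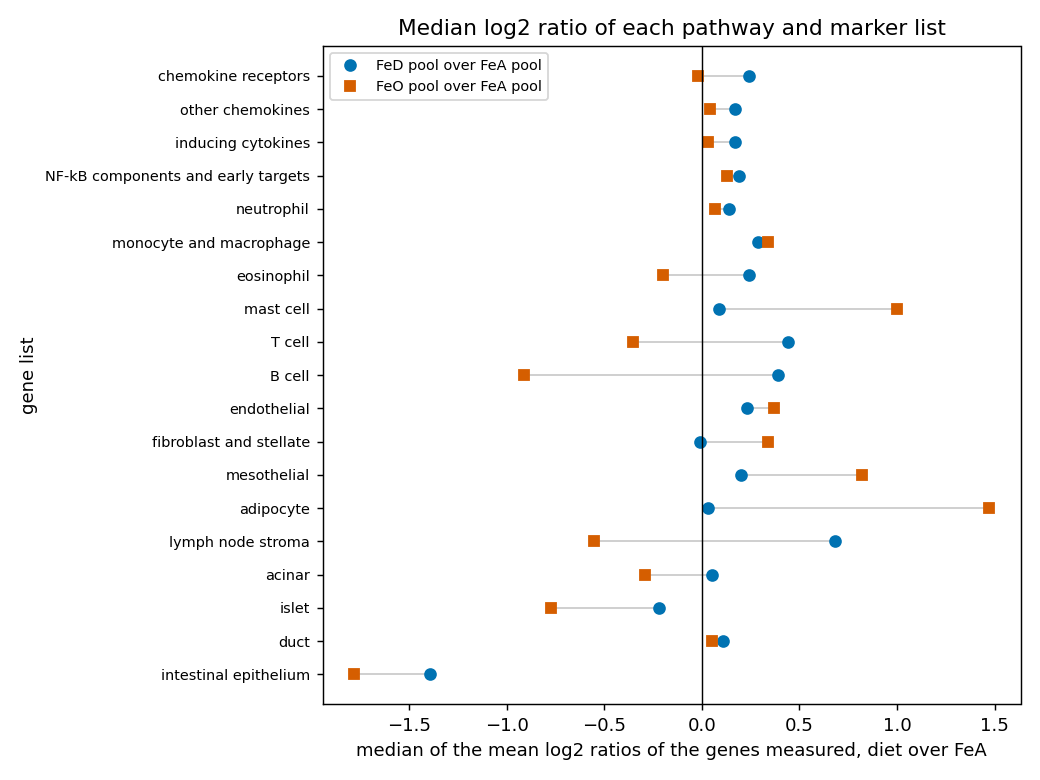
Median of the mean log2 ratios of the measured genes of each of 19 lists (horizontal axis), for FeD over FeA and FeO over FeA. In FeO the mast cell (1.00) and adipocyte (1.47) lists lie to the right and the B cell (-0.91) and intestinal epithelium (-1.78) lists to the left, beside 0.45 for the measured chemokines.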

How the data were processed

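Arrays with 2 dyes and pooled pancreas RNA were read from the scanner files. Per the file headers, the intensity of each spot comes from the authors' scan through Agilent Feature Extraction 10.1.1.1, as uncorrected medians of spot and surrounding background and as processed signals already corrected for background and dye. Mean spot signals are not among the columns, and the medians were taken instead once the files had been seen. The log10 ratios, log2 fold changes, p-values and q-values deposited by the authors, with a keep or discard tag, were not used; only the symbols of those tables were.

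limma 3.58.1 in R 4.3.3 gave the ratios, by normexp background correction with an offset of 50, control spots at weight 0, loess within each array, outlier spots left out, spots of a probe averaged and ratios turned to diet over FeA. A probe was well above background when over 50% of its spots were. A gene with several probes took the brightest. Levels and bounds are channel values after loess and Aquantile. Later steps used Python 3.11.15 with pandas 2.3.3 and numpy 2.4.6, and were tested on simulated data. The reference accession named 59.3% of probes, the symbols deposited by the authors 16.3% and the array accession 24.4%.

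The 10 members, and 19 lists of 197 pathway and marker genes (189 matched to probes), were chosen with earlier results of these data known. List genes named are those past a log2 ratio of 1, at most 6 per list and comparison, the brightest gene of each cell type list, and the receptors of the 10 ligands; genes below background are named beside the cytokine, NF-kB and cell type lists. Other list genes enter only counts, sums and medians, unless said to be chosen after their values were seen. No values are printed for 2 genes that the rule takes. Ackr1, Ackr4, Rel, Relb, Tnfaip3, Ear11, Cd79a and Upk3b had no matched probe. Also run were uncorrected spot signals, an offset of 0, processed signals, median centring, Aquantile, other filters, sizes and probe rules, the methods' t-test, limma's test and each array left out. Promoters and gene order come from RefSeq (GRCr8); the array's own build differs, so no other coordinates are given.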

Additional observations from a re-analysis of the deposited data

Results flagged for a closer look

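Ccl11 stood out because both arrays of one diet lay on the other side of 0 from both arrays of the other. Its mean log2 ratio was -0.20 in FeD (-0.22 and -0.19) and 0.64 in FeO (0.59 and 0.69). Each diet is 1 pool, both ratios share the FeA pool, and the difference was not tested.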

How the results depend on the processing

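The count of chemokines higher in FeD, 0, became 1 with processed signals and 1 at a log2 ratio of 0.58. In FeO it went from 0 to 2 with an offset of 0, to 3 with processed signals and to 4 at 0.58; leaving out each array in turn gave 0 to 1, the 1 being Ccl2 without array 4. An offset of 0 by construction shrinks dim ratios less; processed signals also differ in background and dye correction. Counts of lower chemokines were 0 under every alternative run. The count above 0 on both FeD arrays, 4, ranged from 4 to 7 with an array left out, where the 7 needs only array 1 to be above 0 and above background, which also lets in Ccl7 and Cxcl1; in FeO it stayed within 1.5 times 6.

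No member was called, so none could lose a call. With processed signals Ccl3 in FeD went from 0.15 to 0.39; the other member values this setting moved, up and down, stand beside the counts. With the mean of both probes, Cxcl12 stood at 0.32 in place of 0.65 in FeD and at 0.31 in place of 0.84 in FeO. List medians under other signals and scalings were added after seeing the data: the adipocyte median in FeD, 0.03, was -0.01 with processed signals and -0.01 with median centring, and the acinar medians with median centring were 0.00 in FeD and 0.09 in FeO, where they were 0.05 and -0.29. Processed signals took FeO medians from -1.78 to -3.35 (intestinal), 0.82 to 1.87 (mesothelial), 1.00 to 1.83 (mast cell), 1.47 to 2.20 (adipocyte), -0.35 to -0.92 (T cell), -0.20 to -0.38 (eosinophil), 0.07 to 0.22 (neutrophil), 0.05 to 0.14 (duct) and 0.03 to 0.00 (inducing cytokines), and FeD medians from 0.39 to 0.97 (B cell), 0.17 to 0.55 (inducing cytokines), 0.44 to 0.67 (T cell), 0.14 to 0.41 (neutrophil), 0.09 to 0.22 (mast cell), 0.17 to 0.32 (other chemokines), 0.23 to 0.38 (endothelial) and 0.19 to 0.30 (NF-kB). An offset of 0 also moved medians, among them the B cell FeD median to 0.65 and the T cell FeO median to -0.55. Median centring took the islet FeO median from -0.77 to -0.48, and the neutrophil FeO median from 0.07 to 0.01. It also took the fibroblast FeD median from -0.01 to -0.08 and the duct FeO median from 0.05 to 0.09. Without background subtraction the mesothelial FeD median went from 0.20 to 0.11. The receptor median in FeO, -0.02, was 0.01 without background subtraction and 0.04 with processed signals. The cause was not tested.

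Over all genes, higher and lower counts were 20 and 38 in FeD and 110 and 79 in FeO. An offset of 0 gave 57 and 91, and 192 and 186; processed signals gave 138 and 141, and 341 and 289, with 49.5% of FeD calls higher in place of 34.5%. The methods' t-test and limma compare RNA pools, not diets. At an unadjusted p under 0.05 the methods' t-test placed 1 of 6 chemokines in FeD, beside 982 of 15726 genes, and 3 of 8 in FeO, beside 1290 of 16437, and limma 2 and 5, beside 957 and 1484 genes. After Benjamini-Hochberg adjustment both placed 0, while limma placed 69 and 151 of all genes and the t-test 0 and 0. Each ratio already sets the pools of 1 array side by side. limma's test used these ratios, whereas the t-test compared the channels of the pools without that pairing. The arrays repeat the same RNA, so neither is a test of the diets. Signals near background limit Ccl7, Ccl3, Ccl4, Cxcl1 and Cxcl2. Ccl2 and Ccl11 were well above background in every pool but also dim, with FeA signals of 116 to 121 and 122 to 146 that include the offset. Their FeO ratios went from 0.90 to 1.60 and from 0.64 to 1.04 with processed signals.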

Other observations

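Outside the genes named by rule, and chosen after their values were seen, a pair of lymphoid chemokines lay close to the 2-fold size with near-equal arrays. Cxcl13, which attracts B cells into follicles, had log2 ratios of 0.61 and 0.63 in FeD and 0.99 and 0.98 in FeO, with FeO signals of 676 and 616 against 341 and 313 in FeA. Ccl19, which attracts T cells and dendritic cells through Ccr7, had 0.83 and 0.88 in FeD and -0.93 and -1.02 in FeO, with FeO signals of 447 and 373 against 855 and 759. Both genes belong to the lymph node stroma list, yet Cxcl13 stood above FeA in the pool where Ccl19 stood below it. Ccl6, a chemokine of myeloid cells next to Ccl3 on chromosome 10, stood at 0.18 in FeD and 0.58 in FeO.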
